A study of Mus musculus with 4 samples.

Results

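The genes of sterol and fatty acid synthesis were followed in mouse bone marrow-derived macrophages, 35 genes chosen by name for their place in these pathways. Probe sets, groups of short probes that together read 1 transcript, were taken where the platform annotation gave only 1 of these genes. A gene is read from its brightest probe set, by the mean of all arrays. Of the 35 genes, 34 were measured, out of 18193 genes on the arrays, and Acat2 was not analysed here. They comprised 17 enzymes of sterol synthesis, 12 enzymes of fatty acid synthesis, elongation, desaturation and activation, and 5 regulators or transport proteins. The macrophages were grown from marrow of C57BL/6 mice for 5 days with 10% fetal bovine serum and 10% supernatant of L929 cells, which supplies macrophage colony-stimulating factor. The 4 groups were double-knockout cells lacking Hes1 and Hey1 (DKO) with lipopolysaccharide (LPS), DKO cells untreated, wild-type (WT) cells with LPS, and WT cells untreated. LPS, the bacterial ligand of the receptor TLR4, came from Escherichia coli and was given at 2 ng/ml for 3 h. Hes1 and Hey1 encode repressors of transcription that Notch signalling is known to induce, and the study examined the inflammatory genes they regulate. The labels do not say how the genes were deleted or how many mice gave marrow.

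Each group was 1 array, so the differences have no replicate check and carry neither p-values nor errors. Intensities are in linear units, and differences are log2 ratios of 2 arrays. Values under a floor of 52.9 units, the median of all probe sets, were set to the floor, and a difference from the floor is a bound. All 34 genes lay above the floor on all 4 arrays, with means over the arrays of 95.4 to 5799 units. A gene is called higher or lower past 2-fold, and 1.5-fold serves as a second mark. Shares of all genes above the floor that passed the same mark are given beside each first count. All arrays had the same trimmed mean, but the untreated WT array was brighter by a median log2 ratio of 0.24 among 19615 probe sets under the floor, against 0.015 among 9369 bright ones. Hes1 gave 5.80 and 2.14 units in DKO cells with and without LPS, against 26.7 and 45.4 in WT cells, all under the floor. Hey1 gave 10.2 and 9.17 units in DKO cells, against 17.3 and 57.2 in WT cells, so the labels are checked only weakly, and whether these probes lie in the deleted parts is not stated. All 8 macrophage markers were above the floor on every array, among them Adgre1, which encodes F4/80, at 13253 to 19134 units.

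Cholesterol is made from acetyl-CoA through mevalonate to squalene, and then through lanosterol by a chain of ring modifications. Fatty acids are made from the same acetyl-CoA by carboxylation and chain building, then elongated and desaturated. Transcription factors of the SREBP family, encoded by Srebf1 and Srebf2, drive both branches. INSIG proteins hold SREBPs in the endoplasmic reticulum when sterols are plentiful. LXR receptors, which sense oxysterols, also drive Srebf1, Scd1 and cholesterol efflux genes. In macrophages these pathways are known to be reset during inflammatory activation.

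Hmgcs1, Idi1 and Mvd, mevalonate-branch enzymes, read higher with LPS in both genotypes on their brightest probe sets. The second probe sets of Idi1 and Mvd did not all show this, as described below. Dhcr7, the last enzyme of cholesterol synthesis, read lower in both genotypes. Promoters are shown for these members. Each runs from 250 bases before to 50 after a RefSeq gene start in GRCm38.p6, 5′ to 3′ on the gene's strand. Capitals mark matches on either strand to the CCAAT box (CCAAT, bound by NF-Y), an SRE-like motif (TCACNCCAC, after the SREBP site), the E-box CACGTG and the class C site CACGCG. HES and HEY proteins are known to bind the last of these, and E-boxes are bound by many helix-loop-helix factors, SREBPs included. The Hmgcs1 window is at chr13:119690101-119690400, plus strand. The Idi1 window is at chr13:8885356-8885655, plus strand. The Mvd window is at chr8:122443373-122443672, minus strand. Dhcr7 has 3 listed starts, and the window shown is at chr7:143829964-143830263, plus strand.
Hmgcs1: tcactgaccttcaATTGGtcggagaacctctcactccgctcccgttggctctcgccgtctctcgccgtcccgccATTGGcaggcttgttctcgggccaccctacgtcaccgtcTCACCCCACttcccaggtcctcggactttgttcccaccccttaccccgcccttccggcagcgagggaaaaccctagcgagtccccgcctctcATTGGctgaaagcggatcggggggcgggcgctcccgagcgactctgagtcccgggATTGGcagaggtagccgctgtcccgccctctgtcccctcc
Idi1: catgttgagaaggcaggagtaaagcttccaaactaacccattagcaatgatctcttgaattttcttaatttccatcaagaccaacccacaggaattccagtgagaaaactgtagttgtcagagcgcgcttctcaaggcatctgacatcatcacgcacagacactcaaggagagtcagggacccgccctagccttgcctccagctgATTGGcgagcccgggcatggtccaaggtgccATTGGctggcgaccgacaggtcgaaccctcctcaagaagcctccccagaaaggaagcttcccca
Mvd: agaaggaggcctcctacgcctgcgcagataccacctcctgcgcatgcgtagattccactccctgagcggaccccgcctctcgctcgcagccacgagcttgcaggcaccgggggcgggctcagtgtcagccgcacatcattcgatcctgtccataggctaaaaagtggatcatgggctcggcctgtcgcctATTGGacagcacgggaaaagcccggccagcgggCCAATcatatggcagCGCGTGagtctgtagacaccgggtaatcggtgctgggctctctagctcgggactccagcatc
Dhcr7: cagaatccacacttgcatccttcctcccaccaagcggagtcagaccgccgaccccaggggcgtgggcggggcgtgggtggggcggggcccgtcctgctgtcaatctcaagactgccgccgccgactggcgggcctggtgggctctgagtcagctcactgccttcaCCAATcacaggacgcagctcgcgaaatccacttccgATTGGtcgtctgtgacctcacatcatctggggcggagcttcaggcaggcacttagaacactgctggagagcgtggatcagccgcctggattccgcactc

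Promoters were examined for 27 of the 34 measured members. For the members, promoters on 1 chromosome were left out, while the shares of all genes were not restricted in this way. A CCAAT box lay in at least 1 promoter of 24 of these 27 genes, against 41.1% of 27025 genes with a promoter and 37.4% of 32851 promoters. Counted per promoter it was 25 of 36. The SRE-like motif was found in 1 member, Hmgcs1, and in 1.24% of all promoters. The E-box was in 5 of 27 members, among them Insig1, Sc5d and another start of Dhcr7, against 8.09% of genes and 7.15% of promoters. The class C site was in 8 of 27, among them Mvd, Cyp51, Fasn and Acly, against 10.5% of genes and 9.27% of promoters. The N-box CACNAG, another HES site, was in 15 of 27, against 46.1% of genes and 42.5% of promoters. In the members' promoters no match overlapped one of another motif, and 1 pair of CCAAT matches overlapped, in Fasn. These matches describe letters in a window, not occupied sites.

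With LPS, 3 of 4 desaturation genes read lower in each genotype on their brightest probe sets. So did 3 of 3 elongation genes in DKO and 2 of 3 in WT cells. Another probe set went the other way for Scd1 (0.38) and Elovl1 (0.10) in DKO cells and for Elovl5 (0.02) in WT cells. Several sterol enzymes read higher by less than 2-fold. Of all genes, 39.1% in DKO and 40.8% in WT cells read higher by any amount. Those that read lower were 6849 of 11241 in DKO and 6808 of 11491 in WT cells. In DKO cells with LPS, 0 of 34 members were higher and 2 lower by 2-fold, against 4.66% and 4.77% of all genes. In WT cells 0 were higher and 1 lower, against 3.36% and 3.41% of all genes. At 1.5-fold, 1 was higher and 2 lower in DKO cells (8.94% and 14.5% of all genes), and 4 were higher and 2 lower in WT cells (6.93% and 12.9%).

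Scd2, a stearoyl-CoA desaturase that makes monounsaturated fatty acids, was lower with LPS in both genotypes. Its intensity was 430.0 units with LPS and 1059 untreated in DKO cells, a log2 difference of -1.30. In WT cells it was 334 units with LPS and 675 untreated, a log2 difference of -1.01. Both LPS arrays thus lay under both untreated arrays for this gene. A second probe set gave 29.9 and 111 units in DKO cells with and without LPS, and 36.2 and 68.6 in WT cells, so its differences are bounds of at least 2.09-fold and 1.30-fold lower. The WT value sits at the mark: it was -0.80 with array medians set equal, -0.88 after quantile normalization and -0.86 after loess.

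**Figure D1:**
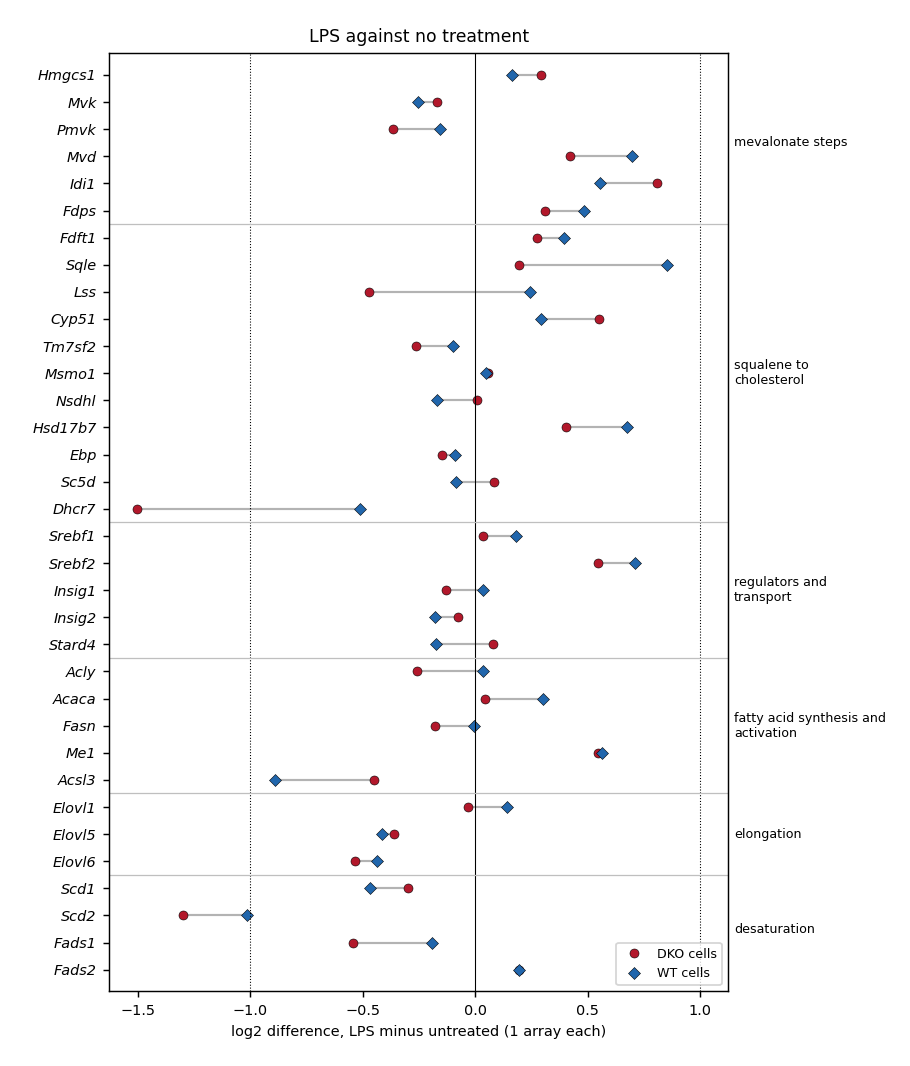
The log2 difference of LPS minus untreated for each of the 34 genes (x axis), in DKO cells (circles) and WT cells (diamonds), 1 array per group, with genes ordered by role and dotted lines at 2-fold. Dhcr7 stands at -1.50 in DKO and -0.51 in WT cells and Scd2 at -1.30 and -1.01, while Idi1, Mvd and Fdps lie right of 0 in both genotypes.

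Dhcr7, the reductase that completes cholesterol, had its lowest value in DKO cells with LPS. It gave 288 units with LPS and 817 untreated in DKO cells, or 2.83-fold lower. In WT cells it gave 478 units with LPS and 682 untreated, or 1.43-fold lower. It has 1 probe set, and its direction was the same in both genotypes under every alternative that gave a value.

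The enzymes of the mevalonate steps did not all go one way. Idi1, which isomerises isopentenyl diphosphate, gave 1739.5 units with LPS and 994 untreated in DKO cells, a log2 difference of 0.81. In WT cells it gave 1417 with LPS and 964 untreated, a log2 difference of 0.56. Its second probe set gave 685 and 447 units in DKO cells, but 619 and 769 in WT cells, so the WT direction depends on the probe set. Mvd, the mevalonate diphosphate decarboxylase, gave 472 units with LPS and 352 untreated in DKO cells, and 739 with LPS and 456 untreated in WT cells. Its second probe set did not show this: 302 and 299.8 in DKO cells, and 462 and 445 in WT cells. Fdps, the farnesyl diphosphate synthase, gave 1359 and 1094 units in DKO cells with and without LPS, and 1650.1 and 1179 in WT cells. Hmgcs1, the synthase that makes HMG-CoA, was higher with LPS by 0.29 in DKO and 0.17 in WT cells. The kinases of the branch went the other way, Mvk by -0.17 and -0.26 and Pmvk by -0.36 and -0.16 in DKO and WT cells, although Mvk's second probe set gave 0.07 in WT cells. Apart from Idi1 in DKO cells and Mvd in WT cells, none of the 6 mevalonate enzymes passed 1.5-fold with LPS.

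Between squalene and cholesterol, 7 of 11 enzymes read higher with LPS in DKO cells and 6 of 11 in WT cells, against 39.1% and 40.8% of all genes. Sqle, the squalene epoxidase, gave 1482 units with LPS and 1295 untreated in DKO cells, a log2 difference of 0.19. In WT cells it gave 2393 with LPS and 1326 untreated, a log2 difference of 0.85, so the WT array with LPS stood above the others. Hsd17b7, a ketosteroid reductase of the pathway, was higher with LPS by 0.40 in DKO and 0.67 in WT cells. Its other probe sets above the floor gave -0.23 and 0.66 in DKO cells and 0.40 and 0.06 in WT cells. Cyp51, the lanosterol demethylase, was higher by 0.55 in DKO and 0.29 in WT cells, and its second probe set gave 0.31 and 0.05. Fdft1, the squalene synthase, was higher by 0.28 and 0.39. Lss, which closes the rings of lanosterol, gave 329 units with LPS and 456 untreated in DKO cells, against 493 with LPS and 416 untreated in WT cells. Its second probe set read lower with LPS in both, at -1.12 and -0.62. Msmo1, Ebp, Nsdhl, Sc5d and Tm7sf2, which remove methyl groups, shift or add double bonds or reduce them, stayed between -0.26 and 0.08 in both genotypes on their brightest probe sets. The second probe set of Sc5d gave -0.65 in DKO and -0.37 in WT cells. That of Msmo1, above the floor on 3 arrays, gave -0.23 in DKO cells, a bound, and 0.63 in WT cells.

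Among the regulators, Srebf2, the SREBP gene tied mainly to sterol synthesis, read higher with LPS. It gave 1171 units with LPS and 800.3 untreated in DKO cells, and 1215 with LPS and 743 untreated in WT cells. Its log2 differences were 0.55 and 0.71, but its second probe set gave 0.16 and 0.01. Srebf1, tied mainly to fatty acid synthesis, gave 1172 and 1145 units in DKO cells with and without LPS, and 1096 and 965 in WT cells. Insig1, itself a known SREBP target, differed with LPS by -0.13 in DKO and 0.03 in WT cells. Insig2 differed by -0.08 and -0.18, and Stard4, a sterol carrier, by 0.08 and -0.18. Their dimmest probe sets gave 0.03 and -0.79 for Insig2 and 0.48 and 0.46 for Stard4.

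Fatty acid enzymes other than Scd2 differed by less than 2-fold with LPS. Acsl3, which joins fatty acids to coenzyme A, gave 135 units with LPS and 185 untreated in DKO cells, against 103 with LPS and 192 untreated in WT cells. Both arrays with LPS lay under both untreated arrays, also for its second probe set (-0.54 and -0.48). The elongase gene Elovl6 differed by -0.54 in DKO and -0.44 in WT cells, and by -0.36 and -0.38 on its second probe set. Elovl5 differed by -0.36 in DKO and -0.41 in WT cells, but its second probe set gave -0.47 and 0.02, so the WT difference rests on 1 probe set. Elovl1 gave 5719 and 5847 units in DKO cells with and without LPS, and 6102 and 5527 in WT cells. The desaturase gene Fads1 differed by -0.54 in DKO and -0.19 in WT cells. Fads2 differed by 0.20 in both, but its other probe sets gave -0.27 and -0.35 in DKO cells and -0.01 and 0.13 in WT cells. Me1, the malic enzyme that supplies NADPH, went against the group: 592 units with LPS and 406 untreated in DKO cells, and 811 with LPS and 548 untreated in WT cells. The core enzymes differed by less than 1.5-fold. Acly, the citrate lyase, differed by -0.26 in DKO and 0.04 in WT cells, and by -0.32 and -0.51 on its second probe set. Fasn, the fatty acid synthase, differed by -0.18 and -0.00, and Acaca, the acetyl-CoA carboxylase, by 0.05 and 0.30.

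Set side by side, the sterol enzymes had the higher median with LPS in both genotypes. In DKO cells it was 0.08 for 17 sterol enzymes and -0.28 for 12 fatty acid enzymes, beside -0.10 for all 11241 genes above the floor. In WT cells it was 0.17 and -0.10, beside -0.09 for 11491 genes. Of the sterol enzymes 11 read higher in DKO and 10 in WT cells, and of the fatty acid enzymes 3 and 5, where 39.1% and 40.8% of all genes did. The gap between the medians was 0.36 in DKO and 0.27 in WT cells, and over the alternatives it ran from 0.23 to 0.37 and from 0.05 to 0.44. The sterol median itself rests on the choice of probe set: with the second brightest one it was -0.11 in DKO and 0.06 in WT cells, and with the median of the probe sets 0.01 and -0.06. The LPS effects of the genotypes, which share no array, correlated across the 34 genes (Pearson's r 0.80, Spearman's rho 0.82). Across 9982 genes above the floor on all arrays these were 0.84 and 0.70, and genes are not independent replicates.

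**Figure D2:**
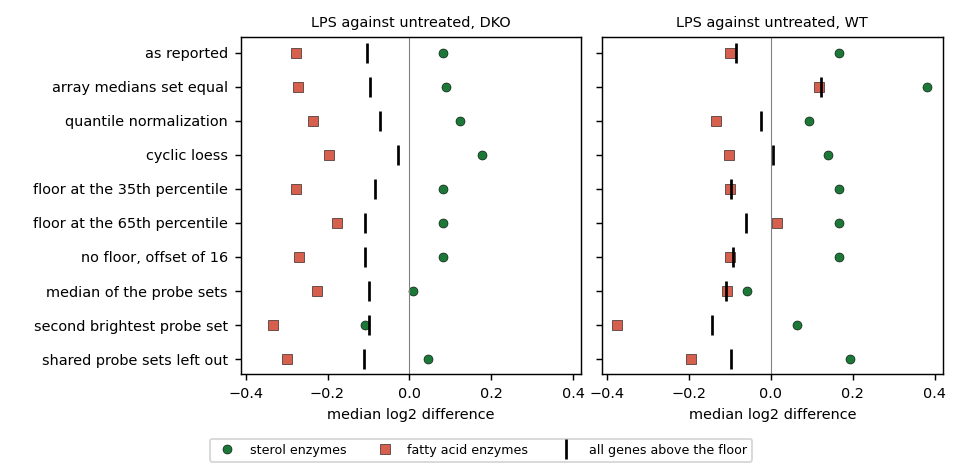
Median log2 difference of LPS minus untreated (x axis) in DKO cells (left) and WT cells (right) under each processing setting, for the sterol enzymes (circles), the fatty acid enzymes (squares) and all genes above the floor (bars). The circle lies right of the square in every row of both panels, by 0.05 to 0.44.

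Between genotypes, Scd1 stood out in size. In DKO against WT cells without LPS, 1 of 34 members was higher and 0 lower by 2-fold, against 0.466% and 0.984% of all genes. With LPS, 1 was again higher and 0 lower, against 0.845% and 0.934%. Both counts are Scd1, whose higher level on the DKO arrays was known when the genes were chosen. At 1.5-fold, 2 were higher and 0 lower without LPS (2.36% and 4.96% of all genes), and 1 was higher and 3 lower with LPS (4.03% and 5.03%).

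Scd1, the other stearoyl-CoA desaturase, gave 272 units with LPS and 335 untreated in DKO cells, against 53.1 with LPS and 73.5 untreated in WT cells. Both DKO arrays lay above both WT arrays, by 5.13-fold with LPS and 4.56-fold untreated. The WT values lie close to the floor of 52.9 units, which limits how well the ratio is known. The second probe set gave 104 and 79.8 units in DKO cells with and without LPS, against 26.5 and 48.6 in WT cells, both under the floor. It thus gave bounds of at least 1.97-fold and 1.51-fold, in the same direction but short of the mark. With the floor at the 65th percentile the WT arrays fell under it, and the log2 bounds were 0.70 with LPS and 0.998 untreated, both short of the mark. LPS made a smaller difference to Scd1 than genotype did, -0.30 in DKO and -0.47 in WT cells, and the second probe set gave 0.38 in DKO cells.

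**Figure D3:**
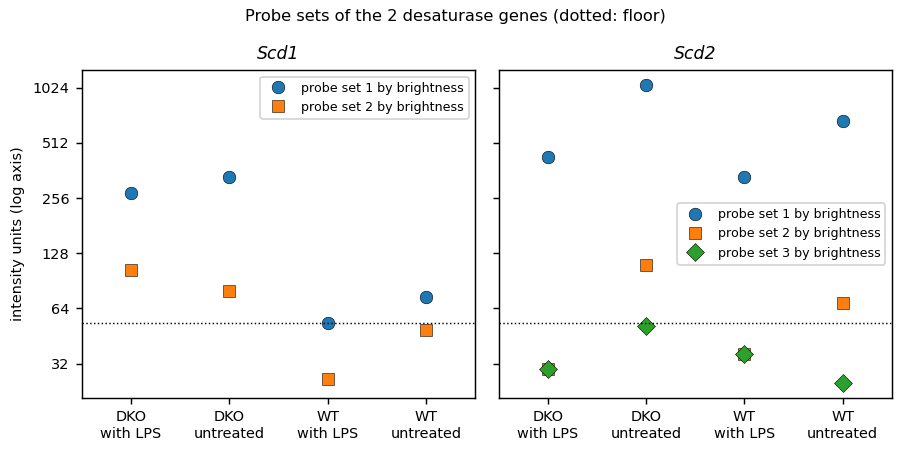
Intensity on each array (log axis, units) for the probe sets of Scd1 (left) and Scd2 (right), numbered by brightness, with the floor of 52.9 units dotted. Both probe sets of Scd1 are higher on the 2 DKO arrays than on the 2 WT arrays, while the brightest of Scd2 is lowest on the 2 arrays with LPS, at 334 and 430.0 units.

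Scd2 differed between genotypes in the same direction as Scd1 but by less. It was higher in DKO cells by 0.36 with LPS and 0.65 untreated, with the arrays' values as given above. Its second probe set gave 0.69 untreated and was under the floor on both LPS arrays. Another gene of the family, Scd3, gave 53.9 and 22.8 units in DKO cells with and without LPS, against 55.1 and 11.2 in WT cells, just above the floor with LPS and under it without. The remaining desaturases, Fads1 and Fads2, differed between genotypes by -0.19 and 0.01 with LPS and by 0.16 and 0.01 untreated. The second probe set of Fads1 gave -0.43 with LPS and -0.48 untreated, so its untreated direction depends on the probe set. The other probe sets of Fads2 gave -0.20 and -0.38 with LPS and 0.06 and 0.10 untreated.

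In the presence of LPS, 14 of 17 sterol enzymes read lower in DKO than in WT cells, against 10 of 17 without LPS. Of all genes, 43.4% read higher in DKO cells with LPS and 47.0% without. The sterol median was -0.15 with LPS and -0.05 untreated, beside -0.04 and -0.02 for all genes. With LPS the lowest were Dhcr7 (-0.73), Sqle (-0.69) and Mvd (-0.65), followed by Lss (-0.58) and Hsd17b7 (-0.42). The second probe sets of Mvd, Lss and Hsd17b7 gave -0.62, -0.41 and -0.51 in this comparison. Without LPS the same 5 genes stood at 0.26, -0.03, -0.37, 0.13 and -0.15. Their other probe sets above the floor gave -0.57 for Mvd and 0.10 for Lss without LPS. Those of Hsd17b7 gave 0.11 and -1.06, the latter 2.08-fold lower and past the mark. Nsdhl and Idi1 read higher in DKO cells with LPS, both by 0.30. Over the 17 enzymes the genotype differences with and without LPS gave a Pearson's r of 0.08 and a rho of 0.13, where all 9982 genes gave 0.32 and 0.25. These enzymes belong to 1 pathway and were read on the same 4 arrays.

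**Figure D4:**
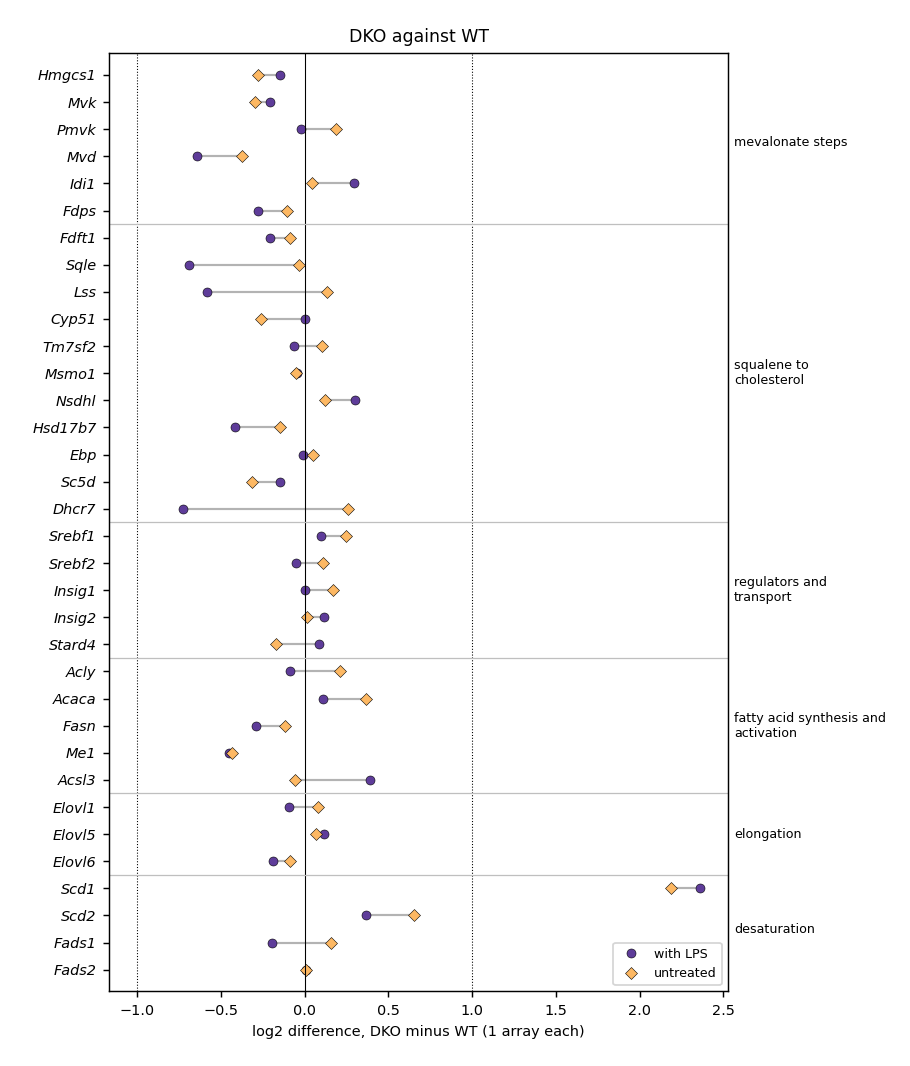
The log2 difference of DKO minus WT for each of the 34 genes (x axis), with LPS (circles) and untreated (diamonds), 1 array per group, with genes ordered by role and dotted lines at 2-fold. Scd1 lies at 2.36 with LPS and 2.19 untreated, and no other gene passes the dotted lines.

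The fatty acid enzymes as a group did not stand apart between genotypes. Their median was -0.04 with LPS and 0.07 untreated, and without Scd1 -0.09 and 0.07. Me1 read lower in DKO cells under both conditions, at -0.45 with LPS and -0.43 untreated, and its second probe set gave -0.12 and -0.64. Acaca read higher by 0.11 with LPS and 0.36 untreated. Acsl3 differed by 0.39 with LPS and -0.06 untreated, and by 0.45 and 0.51 on its second probe set. On their brightest probe sets the 5 regulators stayed between -0.17 and 0.25 in both comparisons. Srebf1 stood at 0.10 with LPS and 0.25 untreated, and Insig1 at 0.00 and 0.17. The dimmest probe set of Insig2 gave 0.38 with LPS and -0.44 untreated.

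The difference of the LPS effects, DKO minus WT, uses all 4 arrays and asks where the genotypes responded unequally. By 2-fold, 0 members were higher and 0 lower, against 1.31% and 0.721% of 9982 genes. By 1.5-fold, 0 were higher and 3 lower, against 5.22% and 4.41%. By any amount 13 of 34 were higher, against 43.6% of all genes. The 3 were Dhcr7 (-0.99), Lss (-0.72) and Sqle (-0.66), all enzymes between squalene and cholesterol. Over all settings Lss ran from -0.93 to -0.51, the latter short of 1.5-fold. Dhcr7 and Sqle have 1 probe set each, so no second one could be compared. The 2 brightest probe sets of a gene lay a median of 0.27 apart in this quantity over 4698 genes, and 12 of 20 members with a second probe set above the floor had opposite signs on them. For Dhcr7 the difference passed 2-fold with array medians set equal (-1.20). The widest difference upward was Acsl3 (0.44).

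**Figure D5:**
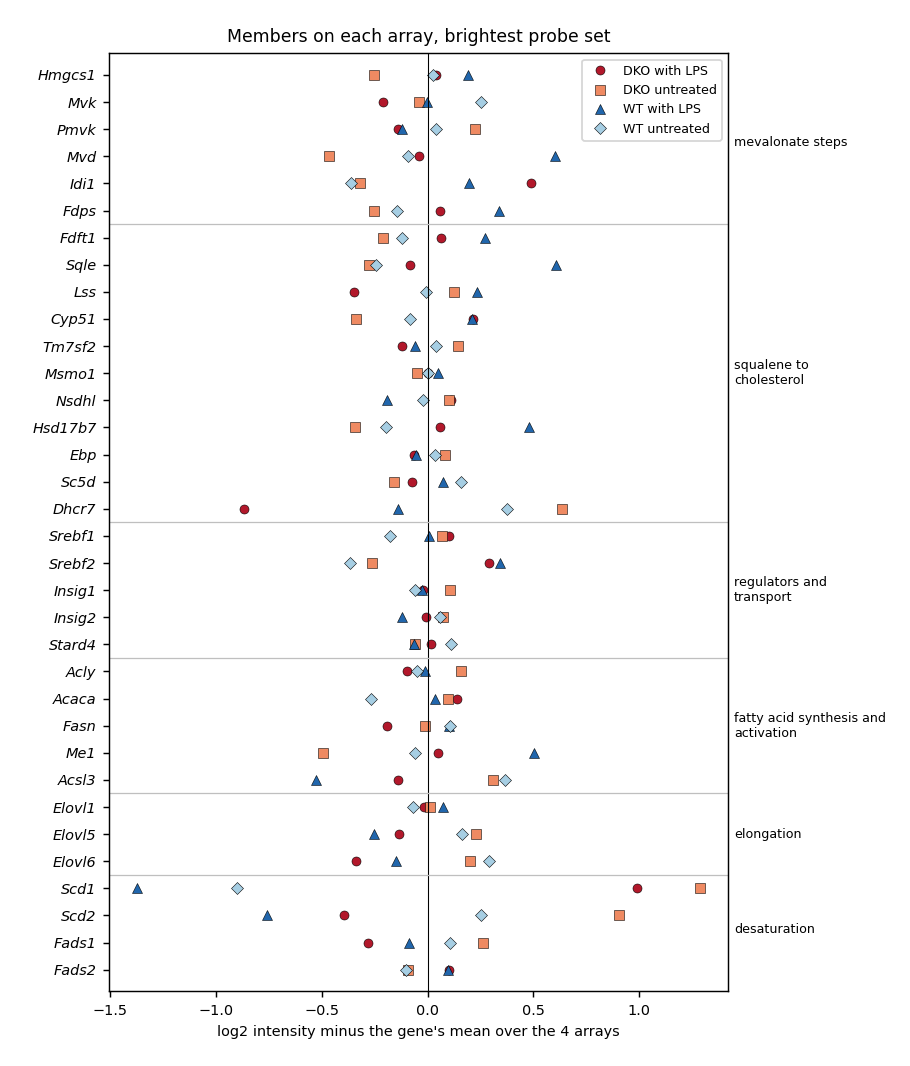
The log2 intensity of each of the 34 genes on each array, minus the gene's mean over the 4 arrays (x axis), with DKO cells in red tones and WT cells in blue tones. The DKO arrays of Scd1 lie right of 0 and its WT arrays left, and the DKO array with LPS is the lowest for Dhcr7 at 288 units.

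Other genes of these pathways gave a few values past 2-fold. With LPS, 4.66% of all genes in DKO and 3.36% in WT cells were higher by 2-fold, and 4.77% and 3.41% lower. Of 10 further sterol and SREBP genes, 1 was higher with LPS in both genotypes, Ch25h, which makes the oxysterol 25-hydroxycholesterol. It gave 2337 units with LPS and 104 untreated in DKO cells, and 1703 with LPS and 92.0 untreated in WT cells. Of 14 further fatty acid and glycerolipid genes above the floor, 1 was lower with LPS in both, Lpin1, a phosphatidate phosphatase. Lpin1 gave 182 units with LPS and 849.8 untreated in DKO cells, and 295 with LPS and 716 untreated in WT cells. In this list 1 was lower in DKO than in WT cells, the elongase gene Elovl7, against 0.934% of all genes with LPS and 0.984% untreated. It gave 88.7 units with LPS and 152 untreated in DKO cells, against 214 with LPS and 342 untreated in WT cells.

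LXR receptors and their targets gave 7 further genes, and a link between these and the Scd1 values was not tested. Of these, 1 was higher by 2-fold in DKO cells under both conditions, Pltp, a phospholipid transfer protein. Of all genes, 0.845% with LPS and 0.466% untreated were higher by 2-fold. Pltp gave 12920 units with LPS and 13416 untreated in DKO cells, against 5357 with LPS and 6088 untreated in WT cells. The list's median was 0.59 with LPS and 0.37 untreated in DKO against WT cells, beside -0.04 and -0.02 for all genes. The 8 macrophage markers had medians of 0.12 and 0.32 in the same comparisons. Srebf1, also driven by LXR but counted among the members, stood at 0.10 and 0.25. The efflux gene Abca1 stood at 0.59 and 0.74 and the apolipoprotein gene Apoe at 0.65 and 0.74. Mylip, which encodes a ubiquitin ligase, stood at 0.60 and 0.37, and the efflux gene Abcg1 at 0.26 and 0.30. Lpcat3, a phospholipid acyltransferase, stood at -0.04 and 0.08, and the receptor gene Nr1h3 at -0.17 and -0.37. With LPS against untreated, Abca1 was past 2-fold higher, by 1.42 in DKO and 1.58 in WT cells. Abcg1 was past 2-fold lower, at -1.23 and -1.19.

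Markers of other cells were set beside these values. Of 4 adipocyte markers, adipocytes being cells rich in Scd1, 3 were under the floor on all arrays. Adipoq gave 19.1 and 16.7 units in DKO cells with and without LPS, against 36.3 and 15.1 in WT cells. Retn passed the floor on 1 array, untreated DKO, at 75.5 units. The 6 fibroblast, 5 neutrophil, 4 dendritic cell and 2 B cell markers were under the floor on all arrays, and Cd8a of 3 T cell markers passed it on 2. The 3 progenitor markers were above it on every array, and their summed level was 438 and 607 units in DKO cells with and without LPS, against 810 and 1135 in WT cells. Cd34 led this difference, at -1.27 with LPS and -1.28 untreated in DKO against WT cells. Kit stood at -0.58 and -0.05, and Gata2 at -0.01 and -0.11. The part of this difference in the values above was not tested. The summed level of the macrophage markers was 127804 and 101407 units in DKO cells, against 120106 and 81447 in WT cells. In such bulk RNA, fewer cells of a type and less RNA per cell cannot be told apart.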

How the data were processed

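Arrays were read from the deposited table of linear intensities, 1 per probe set. Judged by the values alone, the authors' intensities had been scaled to the same mean on each array after trimming 2% at either end. The software was not given in the sources used here. After removal of 64 control probe sets, the platform annotation named 1 gene for 34945 probe sets and several for 932. Another 9160 were not listed and stayed unnamed. Symbols were updated through Entrez identifiers for 34741 probe sets with a RefSeq table of GRCm38.p6.

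With 1 array per group there was no test. Values were floored at the median of all probe sets, log2 differences taken, and genes counted at 2-fold and 1.5-fold. All members were named, with values on every array for those with the largest differences. Members, lists and marks were chosen with earlier results of these data known, among them that Scd1 is higher on the DKO arrays. Alternatives were floors at the 35th or 65th percentile, an offset of 16 units in place of a floor, arrays set to equal medians, cyclic loess, quantile normalization, the second brightest or the median probe set, no probe sets shared with other transcripts, and marks at 1.5-fold or 3-fold. The calculation was tested on simulated data only for large differences planted in bright genes. That test does not bear on small differences or on signal near the floor. Precision is limited by the number of arrays, by signal near the floor and by disagreement between probe sets of a gene. Python 3.11.15 with numpy 2.4.6, and R 4.3.3 with limma 3.58.1 for loess, were used.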

Additional observations from a re-analysis of the deposited data

Results flagged for a closer look

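Dhcr7 read higher in DKO than in WT cells without LPS, by 0.26, and lower with LPS, at -0.73. The median gaps between the probe sets of other genes were 0.20 and 0.18 in these comparisons. Dhcr7 has 1 probe set and no such gap of its own, and the gap does not measure variation between arrays. The difference of the LPS effects for Dhcr7 was -0.99 on the log2 scale, with 1 array per group, and was not tested.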

How the results depend on the processing

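No paired analysis was possible because each group has 1 array. A list median counted as moved where it differed by more than the median gap between a gene's probe sets, 0.18 to 0.27. Of 200 recomputed counts and medians, 175 stayed within that gap or within 1.5 times. At 1.5-fold, 2 members were higher in untreated DKO against WT cells, 3 lower with LPS, 1 higher with LPS in DKO cells, 4 higher and 2 lower with LPS in WT cells, and 3 lower in the difference of LPS effects. At 3-fold, 0 members were lower with LPS in either genotype. Scd1 ceased to count as higher (0 members, untreated and with LPS) with the floor at the 65th percentile and with the second brightest probe set. Scd2 ceased to count as lower in WT cells (0 members) with equal medians, quantile normalization, loess, the offset, the median of the probe sets and the second brightest one. With equal medians 1 member was higher with LPS in WT cells, Sqle, and with equal medians, quantile normalization and loess 1 was lower in the difference of LPS effects, Dhcr7. Equal medians gave 0.16 for the sterol and 0.29 for the fatty acid median in untreated DKO against WT cells, where the median of all genes moved to 0.19, against -0.02 as reported. The second brightest probe set gave -0.37 for the fatty acid median with LPS in WT cells, over 9 genes. The causes of these moves were not tested. For single members, no called difference changed direction, but over all settings the sign held for 26 of 34 members with LPS in DKO cells, 18 with LPS in WT cells, 26 for DKO against WT with LPS and 19 untreated. Signal over background limits Scd1 in WT cells and Elovl6 most.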
